A study of Mus musculus with 3 samples.

Results

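The genes of potassium channels and their auxiliary subunits were examined in thymocytes, which are T cells in development, of 3 wild-type mice. The members were all genes whose only symbol in the platform annotation was Kcn followed by letters and digits, which gave 87 genes, read by 90 probe sets, of 19938 named genes. RNA of each mouse was labelled with biotin and hybridised to its own Affymetrix MoGene array, and each value is a log2 level of a probe set. The mice, numbered 92, 103 and 106 in the labels, carried the wild-type genotype on a mixed FVB and C57BL6 background, and the labels give no treatment, age or sex. They are the normal thymocyte samples of a study of tPTEN-/- mice and their lymphomas, and the lymphomas were not analysed here. The labels enter a T cell lymphoma as disease state also for these samples, although titles and genotypes read wild type, and the RNA integrity number they state is 3 for all mice. With a single group there was no contrast between conditions, so each member was compared with the background of its own array and with its own spread between mice.

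Potassium channels let potassium leave the cell and hold the membrane potential negative. In T cells, a voltage-gated channel encoded by Kcna3 and a calcium-activated channel encoded by Kcnn4 carry most of this current, and the negative potential sustains the entry of calcium through ORAI channels after antigen recognition. Most other members are known from neurons, heart, kidney or glia. Pore-forming subunits fall into voltage-gated, calcium- or sodium-activated, inward rectifier and tandem-pore (K2P) classes, and auxiliary subunits change how the pores open or where they are placed.

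The arrays had medians of 6.70, 6.71 and 6.72 for mice 92, 103 and 106. All 10 measured thymocyte markers, among them Cd3e, Cd4, Cd8a, Rag1 and Dntt, were above background on the 3 arrays, with mean levels from 8.05 to 13.59. The array of mouse 92 stood apart in markers of other cells: the mean level of 10 neutrophil genes was 6.10 in mouse 92, 8.06 in mouse 103 and 7.64 in mouse 106, with 6 of 10 above background on all arrays. For 7 measured B cell genes the mean was 6.72, 7.90 and 7.58 in the same order, and 5 of 7 were above background on all arrays. Markers of neurons, in which many members are transcribed, were above background on all arrays in 1 of 10 cases (Rbfox3, mean level 6.49 ± 0.15, SD, n = 3), and Snap25, Syt1, Nefl, Nefm and Map2 were on none. Of 8 cardiomyocyte markers 5 were above background, at mean levels of 6.31 to 6.84, while Myh6, Myl7 and Ryr2 were on no array above it. By the threshold defined below, 61.8% of all named genes were above background on all arrays. The shares of the neutrophil (60%) and cardiomyocyte (62.5%) markers lay near that value, so these counts alone do not show such cells.

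The promoter sequences of the genes for both main T cell channels are shown first, because their levels stood far above background and because Kcna3 lies in a cluster whose other genes did not. The sequences are the 250 bases before the RefSeq start site (assembly GRCm38.p6), 5′ to 3′ on the strand of the gene. In the Kcnn4 promoter (chr7:24370013-24370262, plus strand) capitals mark the letters TGTGGT or their reverse complement ACCACA, the core that RUNX transcription factors recognise. In the others capitals mark CpG dinucleotides: Kcna3 (chr3:107035912-107036161, plus strand), Kcna2 (chr3:107101317-107101566, plus strand) and Kcna10 (chr3:107182893-107183142, plus strand), which follow each other in gene order.
Kcnn4: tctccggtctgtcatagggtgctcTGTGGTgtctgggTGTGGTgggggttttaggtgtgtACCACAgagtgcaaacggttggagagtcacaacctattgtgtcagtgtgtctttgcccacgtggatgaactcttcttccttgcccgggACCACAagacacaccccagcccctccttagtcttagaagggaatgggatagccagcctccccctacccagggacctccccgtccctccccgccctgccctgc
Kcna3: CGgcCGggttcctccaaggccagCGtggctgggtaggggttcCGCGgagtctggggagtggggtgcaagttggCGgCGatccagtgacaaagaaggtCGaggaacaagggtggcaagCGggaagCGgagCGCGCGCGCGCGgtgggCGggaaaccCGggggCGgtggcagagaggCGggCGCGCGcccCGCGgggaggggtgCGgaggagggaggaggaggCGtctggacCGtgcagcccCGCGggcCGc
Kcna2: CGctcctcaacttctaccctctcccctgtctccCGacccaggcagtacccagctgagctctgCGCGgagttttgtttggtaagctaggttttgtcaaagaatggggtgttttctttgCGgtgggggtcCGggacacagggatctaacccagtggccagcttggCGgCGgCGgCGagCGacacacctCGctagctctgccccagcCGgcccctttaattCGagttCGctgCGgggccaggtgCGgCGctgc
Kcna10: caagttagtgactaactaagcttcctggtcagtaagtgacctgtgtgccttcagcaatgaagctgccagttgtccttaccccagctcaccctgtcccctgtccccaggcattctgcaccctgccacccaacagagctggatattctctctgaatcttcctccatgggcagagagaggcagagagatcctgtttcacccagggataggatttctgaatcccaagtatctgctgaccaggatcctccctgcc

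The background came from 1209 genes for receptors of smell and pheromones (olfactory, vomeronasal, trace amine), known mainly from the nose and here called receptor genes. A gene was called above background when it exceeded their 95th percentile on each of the 3 arrays. These thresholds were 5.91, 6.10 and 6.00 for mice 92, 103 and 106. Of the receptor genes, 47 (3.89%) passed on all arrays themselves. Their highest mean was 8.70, above every member but Kcnn4, Kcna3, Kcnab2 and Kcnh2. Of the 87 members, 40 (46%) passed on all arrays, beside 61.8% of all named genes. At least 1 array was passed by 48 members, beside 66.8% of all named genes, and no array by 39 members, beside 33.2%. Members that passed mostly did so narrowly. Only 4 members, Kcnn4, Kcna3, Kcnab2 and Kcnh2, had a mean at least 2 above the mean threshold of 6.00 on the log2 scale, 4.6% of the members beside 34.3% of all named genes. A mean at least 1 above it was found for 13 members (14.9%), beside 46.7% of all named genes. Of the others, 18 lay between 0.25 and 1 above it, 21 within 0.25 of it on either side, and 35 more than 0.25 below it. The share within 0.25 was 24.1%, beside 9.61% of all named genes. The median of the 87 members was 6.07, beside 6.77 for all named genes and 4.07 for the receptor genes. Probes differ in affinity, so a distance to background does not say which of 2 genes has more transcript, and in a tissue sample fewer cells that transcribe a gene and less RNA per cell cannot be told apart.

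**Figure D1:**
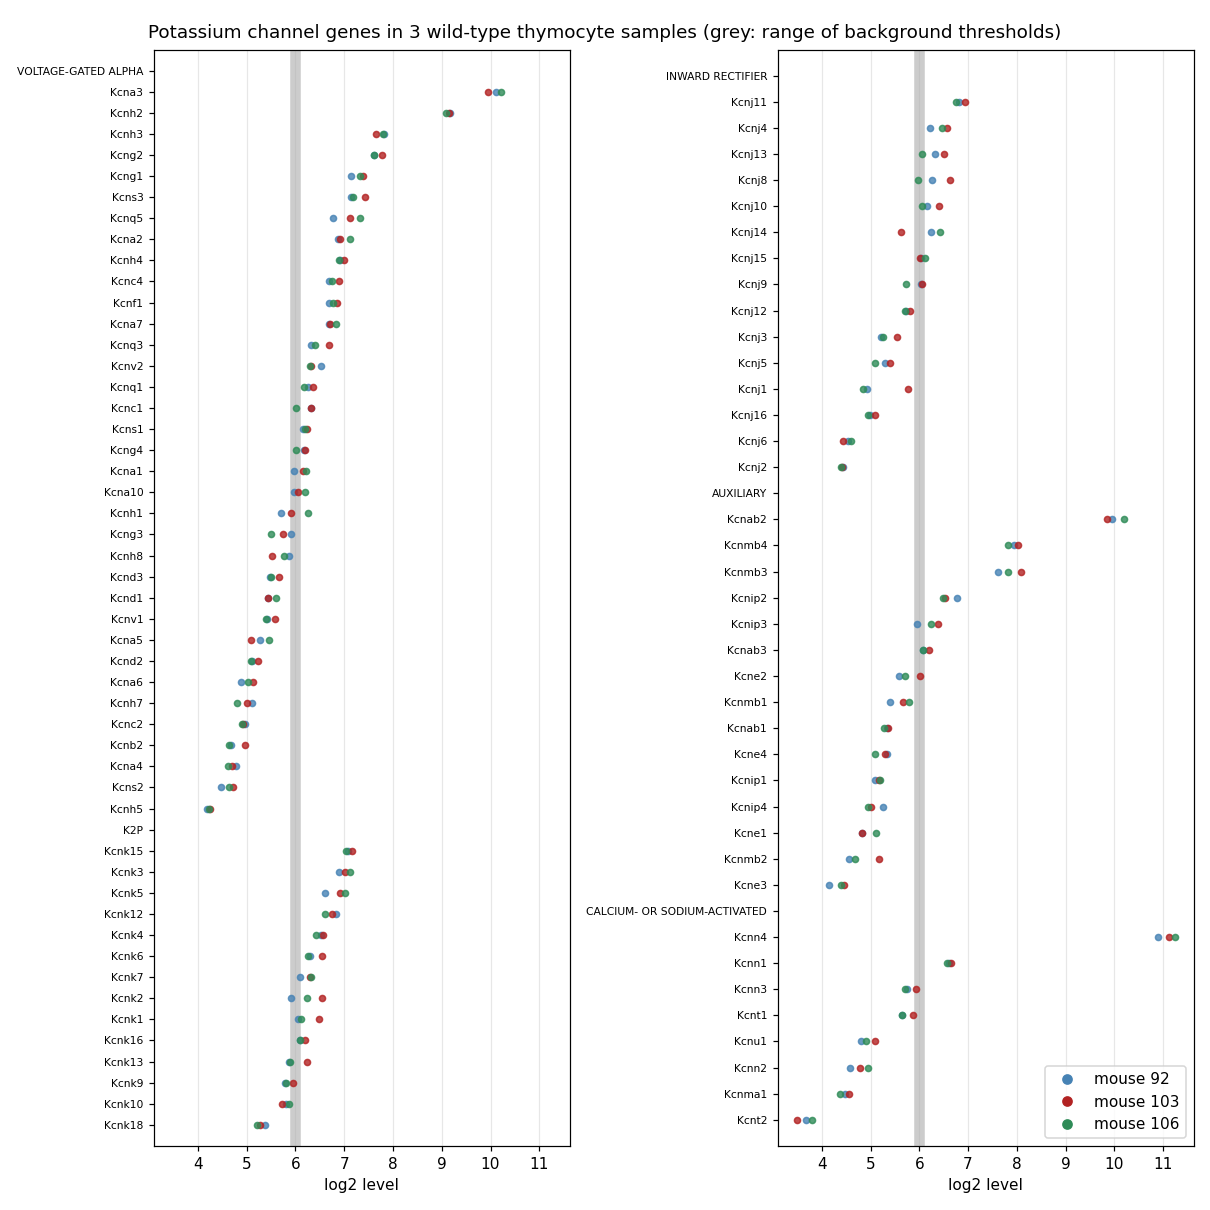
Log2 level of each of the 87 potassium channel genes (rows, by structural class and mean) on the arrays of mice 92, 103 and 106 (points); the grey band spans the background thresholds of the 3 arrays, 5.91 to 6.10. Kcnn4, Kcna3, Kcnab2 and Kcnh2 lie apart on the right, and most other points lie within or left of the band or within 2 log2 units to its right.

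**Figure D2:**
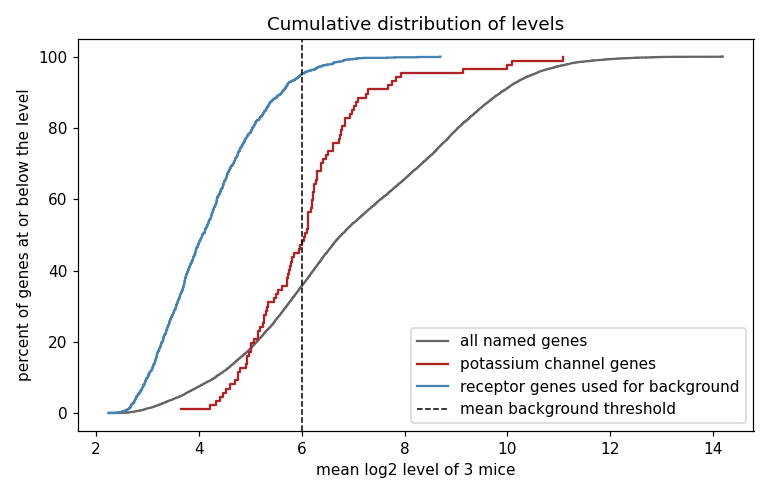
Percent of genes (vertical axis) at or below a mean log2 level over 3 mice (horizontal axis) for 87 potassium channel genes, 19938 named genes and 1209 receptor genes; the dashed line is the mean threshold of 6.00. The potassium channel curve rises steeply around the threshold, where 21 of 87 genes lie within 0.25 of it, and the last 4 genes, Kcnh2, Kcnab2, Kcna3 and Kcnn4, follow with means from 9.13 to 11.08.

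The channels with a known place in lymphocytes were described first. Kcnn4, which encodes the intermediate-conductance channel that calmodulin opens when calcium rises (probe set 10550877), read 10.89, 11.12 and 11.23 (log2) in mice 92, 103 and 106. Each value exceeded its array's threshold by more than 4, and the mean of 11.08 ± 0.17 (SD, n = 3) lay 5.08 above the mean threshold. Kcnn4 read lowest in mouse 92, the mouse with the lowest mean marker levels of neutrophils, B cells, erythroid cells, and macrophages and dendritic cells. The erythroid means were 6.31, 7.38 and 6.96 in mice 92, 103 and 106, and those of macrophages and dendritic cells 7.02, 7.63 and 7.29. These means, like those of neutrophils and B cells, were highest in mouse 103, and Kcnn4 was highest in mouse 106. The part of those cells in the difference was not tested, and the 3 levels spanned 1.27-fold. Kcna3, whose product opens on depolarisation and sets the resting potential of T cells (probe set 10495183), was at 10.12, 9.95 and 10.21, a mean of 10.09 ± 0.13 (SD, n = 3) that lay 4.09 above the threshold. Its order among the mice differed from that of Kcnn4, with mouse 103 lowest. Kcnab2 encodes a cytoplasmic beta subunit that binds channels of the Kcna family. Its levels were 9.94, 9.84 and 10.20 (probe set 10518927), with a mean of 9.99 ± 0.19 (SD, n = 3), 3.99 above the threshold. Kcna3 and Kcnab2, which encode pore and partner, were both lowest in mouse 103 and highest in mouse 106. Neither varied between mice in the test given below (limma, adjusted p = 0.996 for each), and a relation between them was not tested.

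The other lymphocyte channels lay near background. Kcnk5, an acid-sensitive K2P channel linked to volume regulation of T cells, was at 6.60, 6.92 and 7.02 in mice 92, 103 and 106, a mean of 6.84 ± 0.22 (SD, n = 3) and 0.84 above the threshold. Kcnc1, a fast voltage-gated channel of neurons that has also been recorded in mouse thymocytes, was at 6.32, 6.32 and 6.00. In mouse 106 its level equalled the threshold of 6.00 to the second decimal. The count of 5 of 5 lymphocyte channels above background, beside 61.8% of all named genes, rests on that value. With cyclic loess normalisation, with the highest probe set per gene, or with the median of the receptor genes plus 3 median absolute deviations as threshold, Kcnc1 dropped out and the count was 4. Of the 19938 named genes, 12311, 12356 and 11623 passed under these settings, in the same order. With the threshold at the receptor genes' 99th percentile Kcnk5 and Kcnc1 dropped out and the count was 3 of 5, beside 46.8% of all named genes.

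Of the paralogs known mainly from neurons, 11 of 28 measured genes (39.3%) were above background on all arrays, with a list median of 5.87. Of those known from the heart, 5 of 14 (35.7%) were, with a median of 5.76. Both shares lay below the 61.8% of all named genes. With the receptor genes' 99th percentile as threshold, 3 neuronal and 2 cardiac genes passed, beside 46.8% of all named genes. At their 90th percentile 16 neuronal and 8 cardiac genes did, beside 13812 of the 19938 named genes. Kcnh2, the pore of the rapid repolarising current of the heart, was the exception among the cardiac genes, at 9.17, 9.14 and 9.09 in mice 92, 103 and 106 (probe set 10528548). Its mean of 9.13 ± 0.04 (SD, n = 3) lay 3.13 above the threshold, and its values on the 3 arrays were within 0.09 of each other. The other cardiac genes that passed were Kcnk3, Kcnj11, Kcnip2 and Kcnq1, with means from 6.27 to 7.01, a range that overlaps the 6.31 to 6.84 of the cardiomyocyte markers that passed. Kcnj2, the inward rectifier that stabilises the resting potential of heart muscle, was at 4.43, 4.42 and 4.39. Kcna5, a channel of the atrium, had a mean of 5.27 ± 0.18 (SD, n = 3), also below every threshold.

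Among the neuronal genes, Kcnmb4, a beta subunit of the large-conductance calcium-activated channel in brain, was at 7.94, 8.02 and 7.82. The forebrain channel gene Kcnh3 was at 7.82, 7.64 and 7.80. Kcnq5, which contributes to the M-current, was at 6.76, 7.12 and 7.31. These were the only neuronal genes with means at least 1 above the threshold. Kcnb2 at 4.76 ± 0.19, Kcnj6 at 4.53 ± 0.07, Kcnh5 at 4.22 ± 0.03 and Kcnt2 at 3.65 ± 0.16 (mean ± SD, n = 3) were below background on each array.

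**Figure D3:**
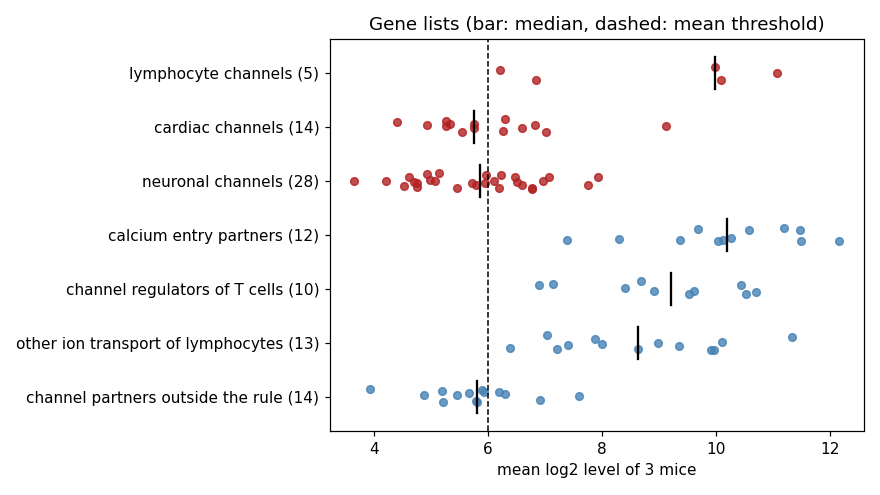
Mean log2 level over 3 mice (horizontal axis) of each measured gene (point) of 3 potassium channel lists (red) and 4 lists of other genes (blue), with the number of genes in brackets, the list median as a bar and the mean threshold of 6.00 as a dashed line. The medians of the neuronal (5.87) and cardiac (5.76) lists lie left of the line, and those of the lymphocyte channels (9.99) and calcium entry partners (10.20) to the right.

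By structural class, the voltage-gated pore genes passed in 19 of 35 cases (54.3%) and the K2P genes in 9 of 14 (64.3%), near the 61.8% of all named genes. The inward rectifiers passed in 4 of 15 cases (26.7%), the calcium- or sodium-activated genes in 2 of 8 (25%) and the auxiliary genes in 6 of 15 (40%). The 4 voltage-gated genes farthest above background were Kcna3, Kcnh2, Kcnh3 and Kcng2. Kcng2 was at 7.62, 7.78 and 7.62. It encodes a subunit that forms no channel alone and modifies pores of the Kcnb family. Of the 10 measured modifiers of this kind (Kcnf, Kcng, Kcns and Kcnv genes) 7 passed (70%, beside 61.8% of all named genes), among them Kcng1 with a mean of 7.28 ± 0.13, Kcns3 with 7.25 ± 0.16 and Kcnf1 with 6.77 ± 0.07 (SD, n = 3). Kcng3 at 5.72, Kcnv1 at 5.47 and Kcns2 at 4.61 were below background on each array. Kcnb2, which encodes such a pore, was on no array above background.

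All 3 measured Kcnq genes passed, with means of 7.06 for Kcnq5, 6.47 for Kcnq3 and 6.27 for Kcnq1, and all 4 measured Kcne genes, which encode small partners of Kcnq1 and Kcnh2, lay below background on each array (means 4.33 to 5.76). The 3 Kcnd genes, pores of the transient outward current, were likewise below background, at means of 5.15 to 5.55, whereas 2 of 4 genes for their Kcnip partners passed, Kcnip2 at 6.77, 6.53 and 6.50 and Kcnip3 at 5.95, 6.38 and 6.23. Kcnip2 and Kcnip3 lay only 0.59 and 0.18 above the mean threshold. Neither passed the receptor genes' 99th percentile on all arrays. Pore and partners also differed for the large-conductance channel. Its pore gene Kcnma1 was at 4.47, 4.56 and 4.38, while Kcnmb4 and Kcnmb3 passed, the latter at 7.60, 8.09 and 7.81, and Kcnmb1 and Kcnmb2 did not. Kcnmb4 and Kcnmb3 passed the 99th percentile too. In each partner family 2 of 4 genes passed, beside 61.8% of all named genes. Both probe sets of Kcnma1, with means of 4.71 and 4.24, were below every threshold.

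Within the Kcnn family, Kcnn4 was accompanied above background by Kcnn1, a small-conductance channel of neurons, at 6.60, 6.64 and 6.57, 0.60 above the threshold. Kcnn2 and Kcnn3 were below it on each array, at means of 4.76 and 5.80. The sodium-activated genes Kcnt1 and Kcnt2 and the sperm channel gene Kcnu1 were below background too.

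The K2P genes carry background potassium currents. The 4 farthest above background were Kcnk15 at 7.08, 7.15 and 7.04, the acid-sensitive Kcnk3 at 6.90, 7.02 and 7.11, Kcnk5, and Kcnk12 at 6.83, 6.74 and 6.60 in mice 92, 103 and 106. No K2P gene had a mean more than 1.09 above the threshold, and 7 of 14 lay within 0.25 of it. With the receptor genes' 99th percentile as threshold, 14 members passed, beside 46.8% of all named genes, and 2 of them were K2P genes, Kcnk15 and Kcnk3.

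Inward rectifiers pass potassium mainly near and below the resting potential. Kcnj11, the pore of the ATP-sensitive channel of pancreas and heart, was at 6.81, 6.94 and 6.74, and Kcnj4 at 6.22, 6.56 and 6.47. Kcnj13 was at 6.32, 6.52 and 6.06 and the glial Kcnj10 at 6.15, 6.40 and 6.05. Of the sulfonylurea receptor genes that complete ATP-sensitive channels, Abcc8 had a mean of 6.20 ± 0.07 (SD, n = 3) and passed, 0.20 above the threshold, and Abcc9 at 5.81 ± 0.07 (SD, n = 3) did not. None of the inward rectifiers passed at that higher threshold.

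Genes of calcium entry, channel regulation and other ion transport in lymphocytes were above background in all 35 measured cases of 3 lists, beside 61.8% of all named genes. Of the calcium entry partners 12 of 12 passed, including Calm2, a calmodulin gene whose product is bound to Kcnn4, at 12.17 ± 0.13, Calm3 at 11.49 ± 0.03 and the calcium release channel gene Itpr2 at 11.48 ± 0.22 (mean ± SD, n = 3). The calcium sensor gene Stim1 was at 10.27 ± 0.13 and the ORAI genes Orai1, Orai2 and Orai3 at 8.30 ± 0.04, 9.69 ± 0.12 and 7.38 ± 0.17 (mean ± SD, n = 3). The list median was 10.20, beside 6.77 for all named genes. Of the regulators of T cell channels 10 of 10 passed. Trim27, a ubiquitin ligase that restrains KCNN4 through PIK3C2B, was at 10.72 ± 0.04, the scaffold gene Dlg1 at 10.54 ± 0.12 and Phpt1, a histidine phosphatase that inhibits KCNN4, at 10.44 ± 0.12 (mean ± SD, n = 3). Nme2, the histidine kinase that activates it, was at 8.41 ± 0.37, and Pik3c2b at 8.69 ± 0.07 (mean ± SD, n = 3). The list of other ion transport passed in 13 of 13 cases, led by the sodium pump subunit gene Atp1b3 at 11.34 ± 0.17, the volume-regulated anion channel gene Lrrc8c at 10.10 ± 0.09 and Atp1b1 at 9.97 ± 0.31 (mean ± SD, n = 3).

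Channel partners and related channels outside the naming rule, most of them known from nerve or heart, passed in 4 of 14 cases (28.6%, beside 61.8% of all named genes): Amigo1, a partner of Kcnb pores, at 7.60 ± 0.06, Hcn3 at 6.92 ± 0.09, Hcn2 at 6.30 ± 0.13 and Abcc8 (mean ± SD, n = 3). The list median was 5.80. Dpp6 and Dpp10, partners of the Kcnd channels, were below background on each array, as those channels were.

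Variation between mice was tested for the 48 members above background on at least 1 array. With limma's moderated variances, 0 of 48 varied beyond genes of like level after Benjamini-Hochberg adjustment over 13316 genes, beside 30 of all tested genes (0.225%). Those 30 were led by Xist, which marks the inactive X chromosome (5.30, 11.85 and 11.67 in mice 92, 103 and 106), and the Y-linked Eif2s3y (10.42, 3.59 and 3.55), Uty and Kdm5d, so the spread between these mice includes a difference in sex. Of the marker lists, 6 neutrophil genes, 1 B cell gene and 1 erythroid gene were also among the 30. Mouse 92 differed from mice 103 and 106 in sex and in these markers, so sex and cell content cannot be told apart. At an unadjusted p under 0.05 there was 1 member, beside 4.85% of all tested genes. That member, Kcnj14, was at 6.24, 5.62 and 6.42 in mice 92, 103 and 106, a range of 1.74-fold (limma, adjusted p = 0.863). It lay below the threshold in mouse 103 and above it in the other mice. The next smallest p-values belonged to Kcnj8 (6.27, 6.64 and 5.98), Kcnk2 (5.91, 6.54 and 6.25), Kcnq5 and Kcnmb3, each with limma's adjusted p at 0.996. The median SD of the 48 members was 0.13, and the median of the prior SD that limma fits at their levels was 0.17. On data simulated for this test with 13316 genes, 85 of 100 genes shifted by 2 on the log2 scale in 1 mouse were recovered and 1 of 100 shifted by 1, so a change of 2-fold in 1 mouse would mostly not have been detectable. The number of mice limits this test, and nothing in the labels says how the samples were taken, so it measures only the spread between these 3 samples, which may be technical in part.

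**Figure D4:**
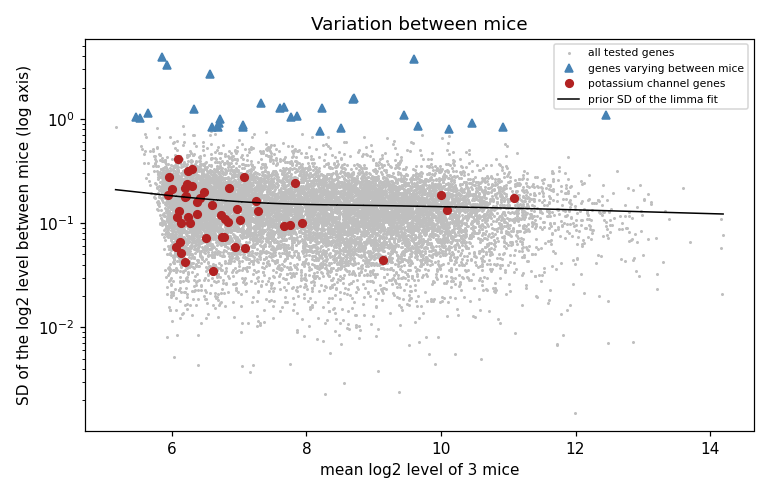
SD of the log2 level between 3 mice (vertical log axis) against the mean level (horizontal axis) for 13316 tested genes (grey), 30 genes that varied between mice (blue triangles), and 48 potassium channel genes (red circles), with limma's prior SD as a line. The potassium channel genes lie around the line, with SDs up to 0.42, below the genes that varied.

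Most members read highest in mouse 103, as did the receptor genes. Of the 87 members 49 (56.3%) read highest in mouse 103, beside 51.9% of the receptor genes and 45.7% of all named genes. The median deviation from the mean of the mice was -0.04, 0.07 and -0.04 over the members in mice 92, 103 and 106, -0.05, 0.06 and -0.03 over the receptor genes, and -0.02, 0.04 and -0.02 over all named genes. Of the 5 lymphocyte channels none read highest in mouse 103 and 4 read highest in mouse 106, where 23.5% of all named genes did; the exception, Kcnc1, lay at background.

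Some members lie next to each other on a chromosome. The RefSeq order of protein-coding genes held 10 pairs of adjacent members. In 2 of them both genes were above background on all arrays, in 4 of them 1 gene was, and in 4 of them neither. Taken singly, 46% of the members and 61.8% of all named genes passed. Adjacent pairs of other genes were not counted, so these counts do not show whether neighbours are alike. Kcna3 was followed by Kcna2 (6.87, 6.91 and 7.12 in mice 92, 103 and 106) and then by Kcna10 (5.97, 6.05 and 6.19), which lay 0.96 and 0.07 above the mean threshold, beside 4.09 for Kcna3. Kcna2 has a pair of probe sets that disagree, with means of 7.53 ± 0.18 and 6.40 ± 0.13 (SD, n = 3). In the cluster of Kcna5, Kcna1 and Kcna6, Kcna1 passed with a mean of 6.11 ± 0.13 (SD, n = 3) and its neighbours did not. Kcnk5 was next to Kcnk16, which passed at 6.13 ± 0.05 (SD, n = 3).

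Promoter windows of 300 bases, 250 before to 50 after the RefSeq start, were matched by symbol for 66 of the 87 members, with 91 windows in all. The 29 members above background on all arrays had a median of 17 CpG dinucleotides per window and the 30 above it on no array a median of 9.5 (averaged over the starts of a gene). The same medians over all named genes with a window were 20 and 4. Of the members above background on all arrays, 21 of 29 (72.4%) had at least 10 CpG dinucleotides, beside 81.3% of all such genes. Of the members on no array above background, 15 of 30 (50%) did, beside 28.7% of all such genes. Promoters rich in CpG occurred on both sides of the background threshold. Kcnc1, near background, had 41 CpG dinucleotides, and Kcnn4, far above it, had 6. In the printed stretches of 250 bases of the Kcna3 cluster the count was 31 for Kcna3, 18 for Kcna2 and 0 for Kcna10. In the full windows of 300 bases it was 37, 31 and 0, so Kcna3 and Kcna2 differed less there.

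**Figure D5:**
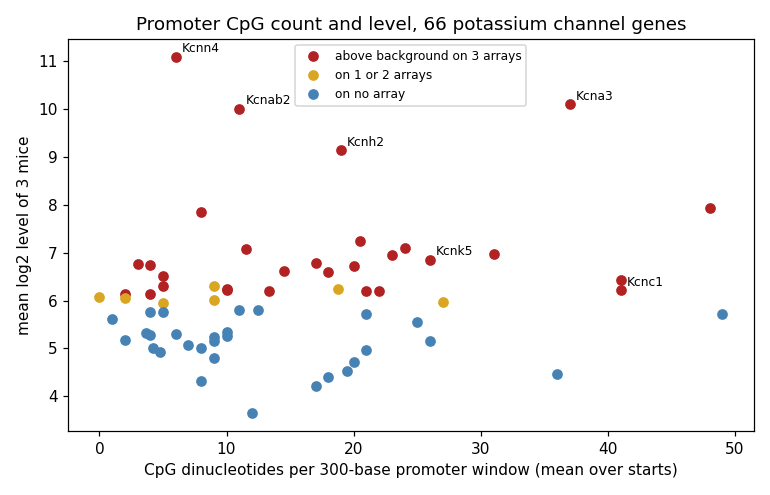
Mean log2 level over 3 mice (vertical axis) against CpG dinucleotides per 300-base promoter window, averaged over a gene's starts (horizontal axis), for 66 potassium channel genes, coloured by the number of arrays on which they were above background. Genes above background on 3 arrays and on none both span low and high CpG counts, the 7 genes on 1 or 2 arrays run from 0 to 27, and Kcnn4 (6) and Kcna3 (37) lie far apart along it.

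Letters recognised by transcription factors were searched on both strands of the windows. Some genes have several starts with overlapping windows, so genes with a match in any window were counted. The RUNX core TGTGGT was present for 11 of 66 members (16.7%), beside 18.9% of all 27025 genes with a window, and the ETS core CCGGAAG for 3 (4.55%, beside 9.93%). The E-box CAGCTG was present for 17 (25.8%, beside 18.3%), the AP-1 site TGACTCA for 2 (3.03%, beside 5.95%) and the TATA letters TATAAA for 5 (7.58%, beside 15.7%). The Kcnn4 window, shown above with these letters in capitals, held the RUNX core 4 times without overlap, which 15 of the 32851 windows (0.0457%) reached or exceeded. It was singled out after its sequence had been seen. The printed stretch of Kcna3 held none of these motifs. A match describes the letters only.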

How the data were processed

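The deposited table gives log2 levels for 35557 probe sets on 3 arrays, made by the authors with Affymetrix Expression Console, per the submitters' processing notes. The log2 scale was inferred from the range of values, 1.76 to 14.96. The version, the background correction, the summarisation and any scaling of the arrays to each other are not stated in the sources used here. If arrays not analysed here entered that normalisation, the levels depend on them too. Gene symbols came from the platform annotation: 21789 had 1 symbol, 1621 had several and 12147 were not listed. Probe sets of a gene were averaged (3 of the 87 members have more than 1).

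Background was the 95th percentile of 1209 receptor genes on each array. Variation between mice was assessed in R 4.3.3 by limma 3.58.1, with an intercept alone and eBayes with a trended prior that was not robust (10.4 degrees of freedom). Each variance divided by its prior gave an F ratio (upper tail), with an adjusted p threshold of 0.05. The test was checked on simulated data.

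The members, lists, tests and alternatives were chosen with earlier results of these data known; the promoter motifs were chosen after the levels were seen. The genes named were the lymphocyte channels, the 4 members of each class with the highest mean among those above background, the 5 with the smallest p, neighbours of lymphocyte channels and the 3 highest of each partner list; other members and partners were named after their values were seen. Lists of macrophage, erythroid, thymic epithelial, fibroblast and endothelial markers had 8 of 10, 3 of 5, 6 of 8 and 4 of 8 measured genes above background, beside 61.8% of all named genes. Alternatives covered the threshold, probe set choice, normalisation, limma prior, filter and each mouse left out.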

Additional observations from a re-analysis of the deposited data

How the results depend on the processing

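The count of members above background on all arrays, 40, was 38 to 53 under the alternatives that changed the threshold to the 90th percentile, the number of arrays, the probe set or the normalisation. With the median plus 3 median absolute deviations as threshold it was 29. Of the 19938 named genes, 12311 to 13812 passed under the former alternatives and 11623 under the latter. At the 99th percentile it was 14, beside 46.8% of all named genes, with 3 lymphocyte, 3 neuronal and 2 cardiac channels. At the 90th percentile 16 neuronal and 8 cardiac channels passed, beside 13812 of the named genes. With 1 mouse left out the counts were 41 to 43 members, 5 lymphocyte, 11 to 12 neuronal and 5 to 6 cardiac channels, beside 12454 to 12500 of the 19938 named genes. The median distance of the members to the threshold, 0.07, was 0.035 to 0.12 with 1 mouse left out, the highest without mouse 103.

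No member varied between mice under any alternative run, with 0 to 3 members at an unadjusted p under 0.05 in limma. The count of all genes that varied, 30, was 18 after quantile normalisation and 18 after cyclic loess, 0 with a robust prior and its per-gene degrees of freedom, and 48 to 84 with 1 mouse left out (58 without mouse 92, 48 without mouse 103 and 84 without mouse 106). The causes were not tested. No paired analysis was possible because the study part analysed here has 1 group. Levels near background, where 21 members lay within 0.25 of the threshold, limit what a pass shows. The labels state a low RNA integrity number, 3, for all mice. Its effect on the levels was not tested, so a call below background does not show that a gene was silent.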
